A study of Mus musculus with 24 samples.

Results

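The genes described here are the secreted and membrane-bound axon guidance cues and their receptors in the prefrontal cortex (PFC) of mice that received dexamethasone (DEX), a synthetic agonist of the glucocorticoid receptor, with or without chronic social defeat. Members were chosen by symbol alone, as every row named Slit1 to Slit3, Robo1 to Robo4, Sema3 to Sema7 with a letter, Plxn of class a to d, Ntn or Ntng, Unc5a to Unc5d, Eph or Efn of class a or b. The rule found 65 of 14074 rows, with 3 Slit, 4 Robo, 6 netrin (Ntn and Ntng), 4 Unc5, 20 semaphorin, 9 plexin, 7 ephrin (Efn) and 12 Eph genes. They comprised 36 ligands and 29 receptors, all 65 annotated as protein-coding, and each had at least 10 reads in every library, so that all 65 were tested. Genes of these families without a row in the deposited table were not analysed here.

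Slit proteins bind Robo receptors, and secreted netrins bind Dcc, neogenin and the Unc5 receptors. Semaphorins bind plexins with or without a neuropilin, and ephrins bind Eph receptor tyrosine kinases. During development these pairs attract or repel growing axons and migrating cells by acting on the actin cytoskeleton. In the adult cortex the same genes are known for roles in dendritic spines and synapses, in glia and in blood vessels.

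Bulk RNA-seq of poly(A) RNA was made from the PFC of 24 adult male C57BL/6 mice, 1 library per mouse, in 6 groups of 4. Control animals (CON) and 2 kinds of stressed animal, which had gone through 30 days of social defeat and were sorted by their behaviour into a passive coping (PS, labelled dep1) and an active coping (AS, labelled dep2) phenotype, each received saline or DEX at 2 mg/kg and were sampled 6 h later. The phenotypes came from clustering of behaviour within the stressed animals, so that PS and AS were not assigned at random, and the dissected block held several frontal cortical areas together. All animals, saline groups included, were injected, and controls were housed singly before sampling. The mice were numbered 106, 107, 109 and 117 (CON, saline), 101, 108, 112 and 122 (CON, DEX), 2, 28, 62 and 68 (PS, saline), 6, 34, 52 and 56 (PS, DEX), 8, 14, 40 and 44 (AS, saline) and 38, 42, 60 and 72 (AS, DEX). Values of single libraries below follow this order.

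Normalized counts are the deposited read counts per gene divided by a size factor per library. Between 21121869 and 59439645 reads per library fell on genes, with medians of 22869703 and 23492572 in the saline- and DEX-treated controls, 24008146 and 24187702 in PS animals, and 34242532 and 37876626 in AS animals. The AS medians were thus above those of the controls, although AS saline mouse 8 (23481722) had fewer reads than 3 of the control libraries. With log2 depth as a covariate, the DEX calls of Ephb4 in AS and Slit2 in PS, both described further below, were lost. Fkbp5, a chaperone gene induced by the glucocorticoid receptor, was at 761 to 888 normalized counts in the saline-treated controls and at 3447 to 4198 in the DEX-treated controls, and its saline and DEX libraries did not overlap in any phenotype. Tsc22d3, another classical target, was at 1211 to 1384 in the saline-treated and 2411 to 2917 in the DEX-treated controls, and rose by 1.11 in PS and 1.08 in AS animals on the log2 scale, so both genes followed the DEX labels.

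Markers of cortical pyramidal neurons were high in all libraries, with Camk2a the most abundant of the 7 measured. A pair of libraries stood apart by markers of the olfactory bulb (Eomes, Cdhr1, Doc2g and Th, with Cdhr1 the most abundant). The 4 markers summed to 4709 normalized counts in CON saline mouse 117 and to 3719 in PS DEX mouse 34, against a median of 196.9 over the 24 libraries. Smaller excesses were seen in AS saline mouse 14 (1691), PS saline mouse 2 (1653), CON DEX mouse 122 (938) and AS DEX mouse 38 (616). AS DEX mouse 60 and AS saline mouse 44 also lay far from the other libraries of their groups, with root mean square deviations of 0.229 and 0.206 on the log2 scale over the genes with a mean of at least 100, next to 0.225 for PS DEX mouse 34 and 0.191 for CON saline mouse 117. The counts of members called for DEX and in the F test are therefore given also without mice 117 and 34, without mouse 44 and without mouse 60.

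Promoter windows were matched to 56 of the 65 members in RefSeq (GRCm38.p6), as the 250 bases before the annotated start. The windows of Unc5a and Unc5b are shown because these netrin receptors of 1 family moved in opposite directions after DEX. Capitals mark GC boxes (GGGCGG, or CCGCCC on the other strand).
Unc5a, chr13:54949161-54949410, + strand: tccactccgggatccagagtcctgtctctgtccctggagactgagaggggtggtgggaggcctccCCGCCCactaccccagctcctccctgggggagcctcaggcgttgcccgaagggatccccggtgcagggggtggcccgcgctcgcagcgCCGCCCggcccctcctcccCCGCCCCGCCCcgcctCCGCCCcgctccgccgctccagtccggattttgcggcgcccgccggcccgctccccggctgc
Unc5b, chr10:60831582-60831831, - strand: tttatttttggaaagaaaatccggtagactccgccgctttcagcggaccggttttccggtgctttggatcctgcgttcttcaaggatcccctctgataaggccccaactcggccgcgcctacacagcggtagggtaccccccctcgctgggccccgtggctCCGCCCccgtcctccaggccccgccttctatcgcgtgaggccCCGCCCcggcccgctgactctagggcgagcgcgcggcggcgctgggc
The Unc5a window held 5 GC boxes, 2 of them overlapping, and the Unc5b window held 2. A GC box was found in 40 of the 56 member windows (71.4%) and in 60.0% of the 10032 windows of genes in the count table. The half-site of the glucocorticoid receptor (TGTTCT, or AGAACA) was in neither window shown, and was present in 4 of 56 member windows (7.14%, those of Plxnd1, Plxna3, Sema4d and Sema6b) and in 10.4% of the 10032. An AP-1 site (TGACTCA, or TGAGTCA) was in 1 member window, that of Sema4c, and in 2.62% of the 10032, and a cyclic AMP response element (TGACGTCA, the same on both strands) was in 0 of the 56 and in 2.81% of the 10032. These are matches of letters in a short window and say nothing about binding elsewhere.

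Levels between genes were compared per kilobase of exon. Ephb6, a kinase-dead Eph receptor, was the highest member at 1517 ± 128 normalized counts per kb (mean ± SD, n = 24 libraries), followed by Sema7a, a membrane-anchored semaphorin, at 1441 ± 122 and the transmembrane Sema6b at 1076 ± 97.9. The ranges of Ephb6 (1240 to 1747) and Sema7a (1152 to 1629) overlapped, and so did those of Sema7a and Sema6b (937 to 1286). Within families the spread was wide: Epha4 was at 936 and Epha3 at 29.8, Unc5a at 777 and Unc5c at 33.1, Slit1 at 364 and Slit2 at 45.1. The lowest member was Sema3b at 19.9 ± 5.96 per kb, next to Sema3d at 27.2 ± 4.56, with ranges (12.5 to 30.6 and 18.3 to 35.9) that overlapped. The full order is shown in the plot of levels per kilobase.

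**Figure D1:**
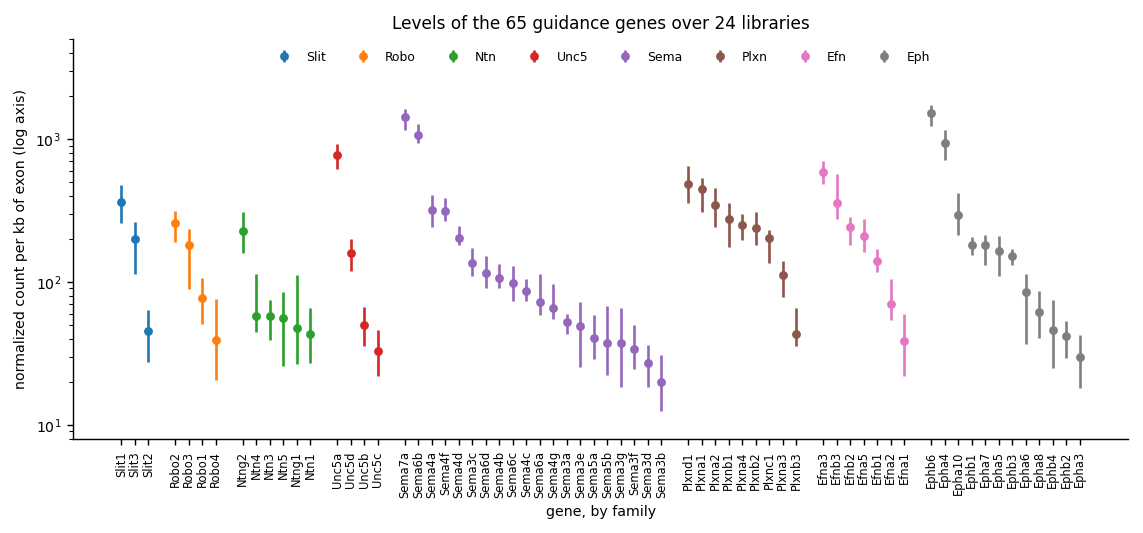
Normalized count per kilobase of exon (log axis) of the 65 genes, by family. Points are means and bars the lowest to highest of 24 libraries; means run from 19.9 (Sema3b) to 1517 (Ephb6).

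In an F test over the 6 groups (limma on log2(normalized count + 1), Benjamini-Hochberg adjustment over all 14074 rows, called at an adjusted p under 0.1), 18 of 65 members were called (27.7%), where 14.8% of all rows were called. Of the 18, 9 were ligands and 9 receptors. The 5 with the smallest p were Epha10 (adjusted p = 6.78e-08), Unc5a (adjusted p = 4.52e-05), Unc5b (adjusted p = 0.000178), Sema4a (adjusted p = 0.000728) and Ntng2 (adjusted p = 0.00208). Without mice 117 and 34, 17 members were called (26.2%, where 15.2% of all rows were), without mouse 44 there were 21 (32.3%, against 18.9%) and without mouse 60 there were 19 (29.2%, against 16.8%).

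Most calls were made in the DEX comparisons. In CON animals 8 members were called (12.3%, where 6.49% of all rows were called), in PS animals 8 (12.3%, against 5.36%) and in AS animals 10 (15.4%, against 8.77%). Most of the called members fell: 7 of 8 in CON, 6 of 8 in PS and 8 of 10 in AS. As shares of the 65, falls made up 10.8%, 9.23% and 12.3%, where 2.46%, 2.62% and 4.95% of all rows fell, and rises made up 1.54%, 3.08% and 3.08%, where 4.03%, 2.74% and 3.82% of all rows rose. The median log2 fold change over the 65 members was -0.10 in CON, -0.05 in PS and -0.08 in AS, beside medians of -0.0088, -0.0026 and 0.0024 over all rows. The AS median rested on single libraries: it was -0.012 without DEX mouse 60 (-0.0020 over all rows) and -0.048 without saline mouse 14, but -0.15 without saline mouse 44 and -0.13 without DEX mouse 72. The CON median was -0.066 without DEX mouse 101 and the PS median -0.073 without saline mouse 68, and over all alternatives they lay between -0.12 and -0.07 and between -0.07 and -0.03. In the mean of the 3 DEX responses, 20 members were called (30.8%, where 15.5% of all rows were called), of which 4 rose (6.15%, against 7.46%) and 16 fell (24.6%, against 8.01%). With the 4 DEX and 4 saline libraries of a phenotype, 7 members did not overlap in CON (10.8%, beside 10.1% of all rows), 9 in PS (13.8%, beside 10.1%) and 7 in AS (10.8%, beside 9.02%), which is near the share of all rows.

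The number called in AS depended on single libraries. It was 18 without AS saline mouse 44 (27.7%, where 14.1% of all rows were called in that fit), 16 without AS DEX mouse 60 (24.6%, against 11.4%) and 6 without AS saline mouse 8 (9.23%, against 4.78%), so the count over all rows moved in the same direction. In PS it was 4 without PS DEX mouse 6 (6.15%, against 3.91%) and 5 without PS saline mouse 2, 28 or 62 (7.69%, against 3.62%, 3.94% and 4.09%). Without mice 117 and 34, 6 members were called in CON (9.23%, against 5.83%), 6 in PS (9.23%, against 4.64%), 14 in AS (21.5%, against 10.1%) and 20 for the mean of the 3 responses (30.8%, against 15.8%). Without mouse 44 there were 9 calls in CON (13.8%, against 6.9%), 8 in PS (12.3%, against 6.03%) and 25 for the mean response (38.5%, against 17.7%). Without mouse 60 there were 9 in CON (13.8%, against 7.33%), 9 in PS (13.8%, against 6.19%) and 18 for the mean response (27.7%, against 16.2%). In CON, a fit of the saline and DEX controls alone called 3 rises and 5 falls, against 1 and 7 with all groups.

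**Figure D2:**
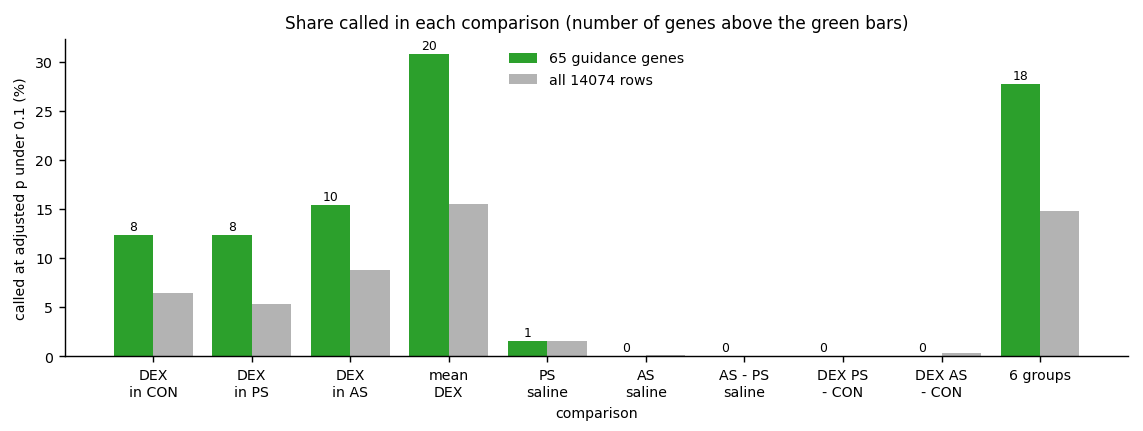
Percent of the 65 guidance genes (green, number called above each bar) and of all 14074 rows (grey) called at an adjusted p under 0.1 in each comparison. The guidance genes exceeded all rows in the DEX comparisons and the 6-group test, with 20 called for the mean DEX response, and 0 were called between AS and PS animals.

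Epha10 and Unc5b were called in all 3 phenotypes, and Ntng2, Ntn1, Sema4a, Slit2 and Unc5a in 2 of them. A further 10 members were called in 1 phenotype. These 2, 5 and 10 members are 3.08%, 7.69% and 15.4% of the 65, beside 1.96%, 2.72% and 9.29% of all rows. In all, 23 members were called in at least 1 comparison or in the F test (35.4%, beside 21.8% of all rows) and 42 in none, the latter with mean DEX responses between -0.25 and 0.28 on the log2 scale. A further 25 calls for DEX in a phenotype, of 20 members, were made only under an alternative, 10 of them under a single one, and those made under the most were Plxna2 (8 alternatives), Epha3 (7) and Sema6c (7), all in AS. Members described below as not called are so in the main model. A call in one phenotype and not in another is not a difference between them, and the tests of such differences are given further below. In these bulk samples, fewer cells of a type and less RNA per cell cannot be told apart.

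**Figure D3:**
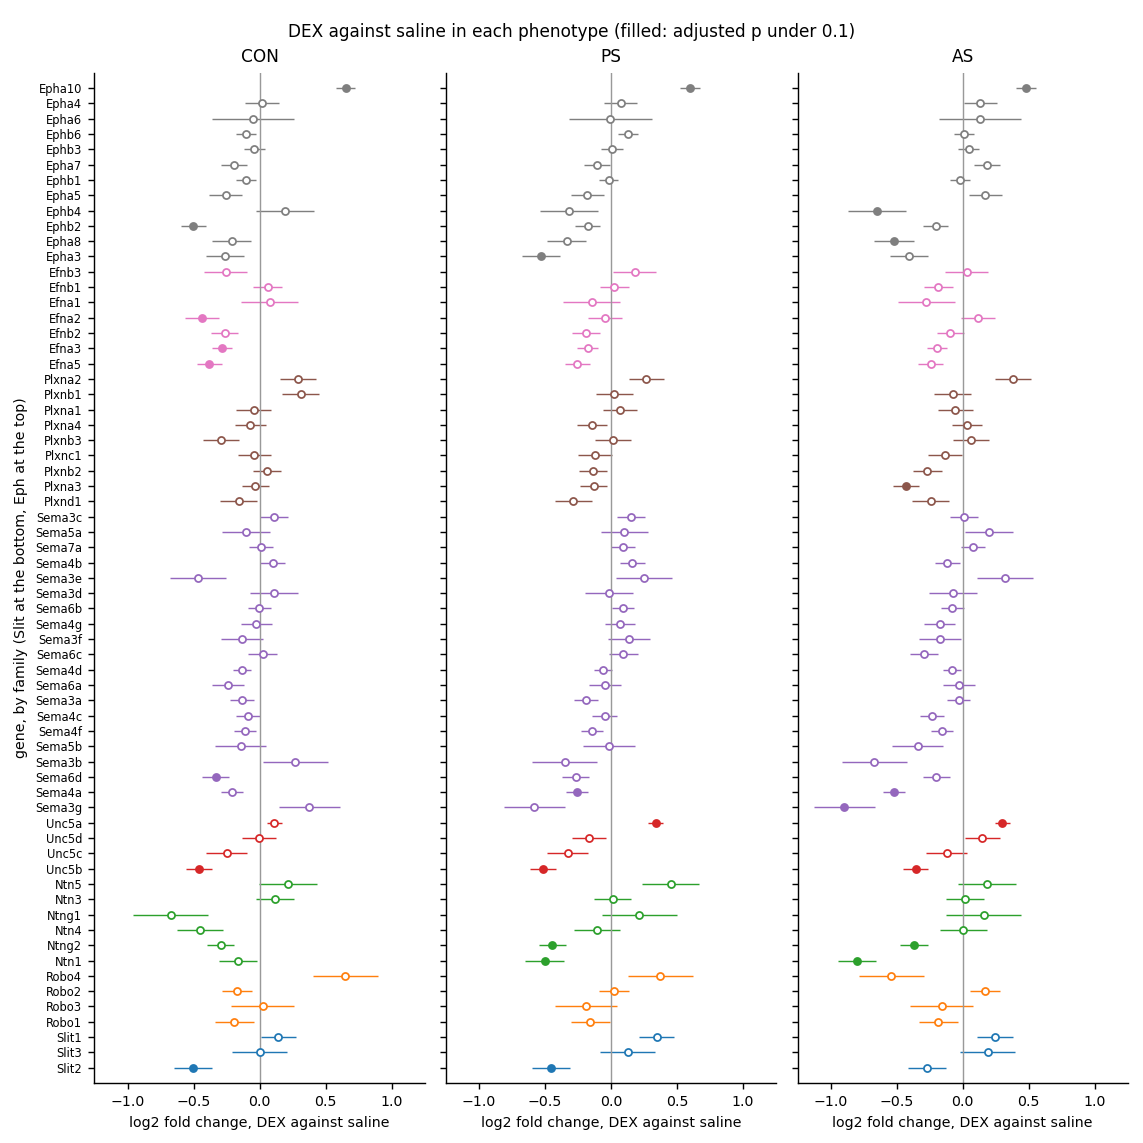
Log2 fold change of DEX against saline for each of the 65 genes in CON, PS and AS animals, ordered by family and coloured by it. Bars are standard errors and filled points have an adjusted p under 0.1; Epha10 lies between 0.48 and 0.65 in all 3 panels, and most filled points lie below 0.

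Among the Slit ligands, which repel axons through Robo receptors, Slit2 fell with DEX in CON and PS animals. Normalized counts of Slit2 were 1425, 1617, 1564 and 1087 in the saline-treated controls and 701, 1182, 1222 and 955 in the DEX-treated controls. In PS animals, Slit2 stood at 1356, 1253, 1312 and 1308 with saline and 1025, 844, 1082 and 876 with DEX. In AS animals, Slit2 stood at 1153, 1303, 1164 and 1119 with saline and 1067, 1143, 779 and 978 with DEX. The DEX libraries lay below all saline libraries in PS, while in CON mouse 117 (1087) lay within the DEX range and in AS the groups overlapped. The fall was largest in CON (log2 fold change -0.50 ± 0.14 (SE), adjusted p = 0.0448), close to it in PS (log2 fold change -0.46 ± 0.14 (SE), adjusted p = 0.0849), and not called in AS (log2 fold change -0.27 ± 0.14 (SE), adjusted p = 0.338). Both calls were near the threshold. In CON the call was lost without mouse 106, 107, 109, 101 or 122 and in a fit of the controls alone, with adjusted p from 0.0105 to 0.203 over all alternatives, and in PS it was lost without any one of 7 of the 8 mice of that comparison (all but mouse 52), with adjusted p from 0.00887 to 0.231. The mean of the 3 responses was -0.41 ± 0.08 (SE), adjusted p = 0.00118, and this call was kept in all 31 alternatives.

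Slit1, the most abundant Slit, moved the other way. Normalized counts of Slit1 were 2081, 2266, 2282 and 1958 in the saline-treated controls and 1971, 2476, 2822 and 2275 in the DEX-treated controls. In PS animals, Slit1 stood at 1858, 1772, 2102 and 1912 with saline and 2684, 2085, 2413 and 2556 with DEX. In AS animals, Slit1 stood at 2119, 1863, 1848 and 1528 with saline and 2836, 2319, 1559 and 2139 with DEX. Saline and DEX libraries overlapped in every phenotype. No single response passed the test, with log2 fold changes of 0.14 in CON, 0.35 in PS and 0.24 in AS, but the mean response did (log2 fold change 0.24 ± 0.08 (SE), adjusted p = 0.0387). Without AS DEX mouse 60, Slit1 was called in PS and AS and in the F test. Slit3 did not pass the test in any comparison.

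Of the Robo receptors, none was called for DEX in any phenotype, and only Robo4 was called in the F test (adjusted p = 0.0259). Robo2, the most abundant of them, showed no called change. Normalized counts of Robo2 were 4742, 4932, 5293 and 4433 in the saline-treated controls and 3214, 4651, 5009 and 4541 in the DEX-treated controls. In PS animals, Robo2 stood at 4099, 4212, 4717 and 4195 with saline and 4247, 4067, 4814 and 4346 with DEX. In AS animals, Robo2 stood at 4119, 4192, 3991 and 3564 with saline and 4676, 5079.6, 3452 and 4811 with DEX. The DEX responses of Robo2 were -0.17 ± 0.11 (SE) in CON, 0.02 ± 0.11 in PS and 0.17 ± 0.11 in AS, with an adjusted p of 0.483 or more. Without AS DEX mouse 60, Robo2 was called for DEX in AS, and Robo4 in CON and AS; the call of Robo4 in CON was also made by DESeq2 and in a fit of the controls alone, and that in AS also without AS saline mouse 14. Robo4, a receptor of blood vessel endothelium, is named here after its values were seen and is described with the vascular markers.

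In the netrin family, the secreted guidance cue Ntn1 and the membrane-anchored netrin-G Ntng2, a synaptic adhesion molecule, fell in PS and AS animals. Normalized counts of Ntn1 were 328, 282, 302 and 265 in the saline-treated controls and 299, 283, 199 and 279 in the DEX-treated controls. In PS animals, Ntn1 stood at 324, 322, 359 and 264 with saline and 202, 199.9, 232 and 260.1 with DEX. In AS animals, Ntn1 stood at 412, 309, 378 and 251 with saline and 218, 171, 173 and 200.4 with DEX. The DEX and saline libraries of Ntn1 did not overlap in PS or AS and overlapped in CON. The fall was 1.74-fold in AS (log2 fold change -0.80 ± 0.15 (SE), adjusted p = 0.00112) and smaller in PS (log2 fold change -0.50 ± 0.15 (SE), adjusted p = 0.0545), and the CON value was -0.16 ± 0.15 (SE), adjusted p = 0.686. The call in PS was lost without PS saline mouse 2, 28 or 62, without PS DEX mouse 6 or 34, and without mice 117 and 34 together, with adjusted p from 0.0203 to 0.172 over the alternatives. The call in AS was kept in all 32.

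Normalized counts of Ntng2 were 1224, 1142, 880.3 and 956 in the saline-treated controls and 934, 931, 765 and 782 in the DEX-treated controls. In PS animals, Ntng2 stood at 1028, 989.6, 917 and 930.3 with saline and 655, 763, 639 and 791 with DEX. In AS animals, Ntng2 stood at 1196, 1095, 914 and 965 with saline and 880.1, 742, 812 and 785 with DEX. Ntng2 was the most abundant of the 6 netrin genes, and its DEX libraries lay below all saline libraries in PS and AS. The responses were -0.44 ± 0.10 (SE), adjusted p = 0.0128 in PS, -0.37 ± 0.10 (SE), adjusted p = 0.0362 in AS and -0.29 ± 0.10 (SE), adjusted p = 0.126 in CON, which did not pass. The AS call was lost without AS saline mouse 8 or AS DEX mouse 42, with adjusted p from 0.0106 to 0.167. Ntn3, Ntn4, Ntn5 and Ntng1 were not called in any comparison.

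The Unc5 receptors, which mediate repulsion by netrins and are also known as dependence receptors, held members that moved in opposite directions. Unc5a (chr13:54949411-55006018, + strand), the most abundant, rose in PS and AS. Normalized counts of Unc5a were 3449, 3378, 3177 and 3108 in the saline-treated controls and 3455, 3656, 3697 and 3345 in the DEX-treated controls. In PS animals, Unc5a stood at 2584, 2822, 2827 and 2622 with saline and 3454, 3439, 3358 and 3444 with DEX. In AS animals, Unc5a stood at 3028, 2902, 2867 and 2821 with saline and 3836, 3183, 3553 and 3742 with DEX. In both stressed phenotypes every DEX library lay above every saline library. Unc5a rose by 0.34 ± 0.06 (SE) on the log2 scale in PS (adjusted p = 0.000566) and by 0.30 ± 0.06 in AS (adjusted p = 0.00181), while the CON value was 0.11 ± 0.06 (SE), adjusted p = 0.364. DEX-treated animals of the 3 phenotypes stood at similar levels, 3538 ± 167, 3424 ± 44.4 and 3579 ± 289 (mean ± SD, n = 4 each), whereas the saline means were 3278 ± 162, 2714 ± 129 and 2904 ± 88.6. The calls for DEX in PS and AS were kept in all 32 alternatives.

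Unc5b (chr10:60762593-60831581, - strand), a receptor found in vessels as well as neurons, fell in all 3 phenotypes. Normalized counts of Unc5b were 414, 353, 351 and 389.8 in the saline-treated controls and 257, 305, 285 and 251 in the DEX-treated controls. In PS animals, Unc5b stood at 371, 369.6, 362 and 379 with saline and 224, 275, 263 and 275 with DEX. In AS animals, Unc5b stood at 357, 329, 344 and 304 with saline and 322, 237, 251 and 238 with DEX. Saline and DEX libraries did not overlap in CON or PS, and in AS a single DEX library, that of mouse 38 (322), lay inside the saline range. The log2 fold change was -0.46 ± 0.10 (SE), adjusted p = 0.00509 in CON, -0.52 ± 0.10 (SE), adjusted p = 0.00192 in PS and -0.36 ± 0.10 (SE), adjusted p = 0.0296 in AS. The AS call was lost without AS saline mouse 8 or AS DEX mouse 42 and in a fit of the AS groups alone, with adjusted p from 0.00342 to 0.15. Unc5c and Unc5d were not called in any comparison.

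**Figure D4:**
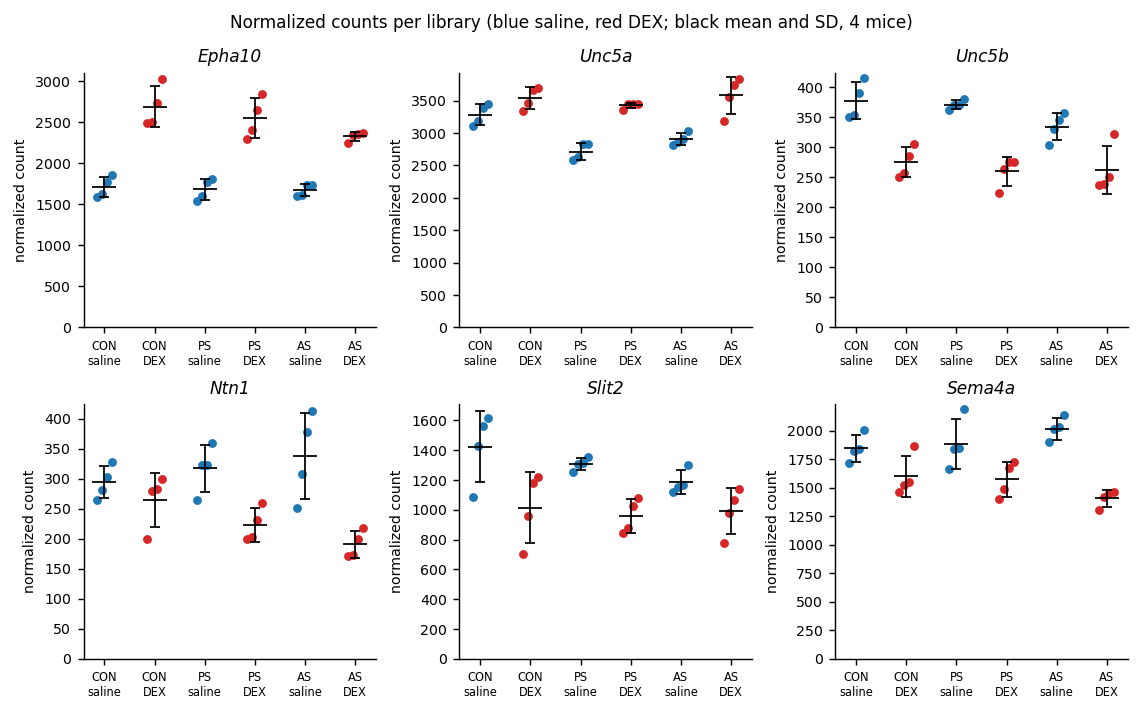
Normalized counts of Epha10, Unc5a, Unc5b, Ntn1, Slit2 and Sema4a in each of the 24 libraries (blue saline, red DEX), with group mean and SD of 4 mice in black. Epha10 is higher in every DEX library (at least 2250.0) than in every saline library (at most 1854), and Unc5a with saline is lower in PS and AS than in CON.

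The semaphorins, the largest family with 20 members, had 1 fall called in CON (Sema6d), 1 in PS (Sema4a) and 2 in AS (Sema3g and Sema4a), and no rise. Falls were thus called for 5%, 5% and 10% of the family, where 2.46%, 2.62% and 4.95% of all rows fell and 4.03%, 2.74% and 3.82% rose. Sema4a, a transmembrane semaphorin known in immune cells and vessels, fell most clearly in AS. Normalized counts of Sema4a were 1819.6, 2001, 1836 and 1719.9 in the saline-treated controls and 1865, 1545, 1522 and 1459 in the DEX-treated controls. In PS animals, Sema4a stood at 1659, 1848, 1839 and 2187 with saline and 1675, 1399, 1489.6 and 1720.4 with DEX. In AS animals, Sema4a stood at 2133, 2009, 2029 and 1896 with saline and 1451, 1301, 1458 and 1414 with DEX. The AS groups did not overlap, and those of CON and PS did. The response was -0.52 ± 0.08 (SE), adjusted p = 0.000353 in AS and -0.26 ± 0.08 (SE), adjusted p = 0.0984 in PS, with -0.21 ± 0.08 (SE), adjusted p = 0.195 in CON, which did not pass. The PS call lay at the threshold and was lost in 19 of 32 alternatives, among them the omission of any one of 17 libraries and of mice 117 and 34 together, with adjusted p from 0.0525 to 0.338. Sema6d fell in CON (log2 fold change -0.33 ± 0.10 (SE), adjusted p = 0.0696). Sema7a, the most abundant semaphorin by normalized count, was not called. Normalized counts of Sema7a were 5109, 4911, 5264 and 4164 in the saline-treated controls and 5372, 4864, 4833 and 4474 in the DEX-treated controls. In PS animals, Sema7a stood at 3798, 5168, 4715 and 4671 with saline and 4501, 4959, 5141 and 4867 with DEX. In AS animals, Sema7a stood at 4732, 4012, 4768 and 4607 with saline and 4309.8, 4569, 5308 and 4942 with DEX. Its groups overlapped in every phenotype, with DEX responses of 0.01, 0.09 and 0.08 in CON, PS and AS (adjusted p of 0.739 or more).

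Of the plexins, the semaphorin receptors, Plxna3 fell in AS (log2 fold change -0.43 ± 0.10 (SE), adjusted p = 0.01), and Plxna2, which had the highest normalized count of the family, rose in the mean of the 3 responses (log2 fold change 0.31 ± 0.08 (SE), adjusted p = 0.00788). Normalized counts of Plxna2 were 5726, 6025, 6692 and 4609 in the saline-treated controls and 6104, 7517, 7441 and 6968 in the DEX-treated controls. In PS animals, Plxna2 stood at 4647, 5334, 5175 and 5574 with saline and 6307, 5161, 7005 and 6581 with DEX. In AS animals, Plxna2 stood at 5561, 4804, 5663 and 4151 with saline and 6526, 7476, 4736 and 7781 with DEX. The groups of Plxna2 overlapped in each phenotype, and its responses of 0.29 in CON, 0.27 in PS and 0.38 in AS did not pass the test one by one. The AS response of Plxna2 was called in 8 alternatives, among them edgeR, DESeq2, the fit without AS DEX mouse 60 and that without mice 117 and 34. Plxnd1, a receptor of endothelium and some neurons, fell in the mean response (log2 fold change -0.23 ± 0.08 (SE), adjusted p = 0.0677) and in no phenotype alone. The other 6 plexins were not called in any comparison.

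Sema3g, a secreted semaphorin of arterial endothelium, had the largest fall of any member called in AS. Normalized counts of Sema3g were 155, 179.5, 201 and 139 in the saline-treated controls and 296, 226, 157 and 209 in the DEX-treated controls. In PS animals, Sema3g stood at 141, 203, 189 and 243 with saline and 143, 93.1, 103 and 188 with DEX. In AS animals, Sema3g stood at 219.6, 140.1, 246 and 177 with saline and 91.8, 97.5, 148 and 82.9 with DEX. In AS the DEX and saline libraries overlapped through DEX mouse 60 (148), and in CON and PS they overlapped too. The log2 fold change was -0.89 ± 0.23 (SE), adjusted p = 0.0205 in AS, -0.58 ± 0.23 (SE), adjusted p = 0.217 in PS and 0.37 ± 0.23 (SE), adjusted p = 0.489 in CON, the last a value above 0. The AS call was kept in all 32 alternatives. The mean response (-0.37 ± 0.13 (SE), adjusted p = 0.0772) was lost in 16 of 31 alternatives, 14 of them the omission of a single library, with adjusted p from 0.0277 to 0.15. Ephb4, the Eph receptor of venous endothelium, fell in AS as well. Normalized counts of Ephb4 were 182, 256, 233 and 194 in the saline-treated controls and 345, 222, 184 and 256 in the DEX-treated controls. In PS animals, Ephb4 stood at 229, 186, 276 and 205 with saline and 208, 115, 157 and 266 with DEX. In AS animals, Ephb4 stood at 318, 186, 291 and 206 with saline and 146, 132, 168 and 178 with DEX. The AS groups of Ephb4 did not overlap (log2 fold change -0.65 ± 0.22 (SE), adjusted p = 0.0867), and the values were -0.32 ± 0.22 (SE), adjusted p = 0.623 in PS and 0.19 ± 0.22 (SE), adjusted p = 0.773 in CON. The AS call was lost without CON DEX mouse 122, AS saline mouse 8 or 40, or AS DEX mouse 38 or 42, under quantile normalization and with depth as a covariate, with adjusted p from 0.0252 to 0.299.

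Normalized counts of Robo4 were 174, 208, 219.5 and 209 in the saline-treated controls and 402, 322, 262 and 297 in the DEX-treated controls. In PS animals, Robo4 stood at 108, 156, 159.9 and 199.7 with saline and 209, 157, 165 and 282 with DEX. In AS animals, Robo4 stood at 319, 136, 236 and 185 with saline and 117, 130.0, 239 and 115 with DEX. For Robo4, every DEX library of the controls lay above every saline library, and in AS the DEX libraries other than mouse 60 lay below all saline libraries. The responses were 0.65 ± 0.25 (SE), adjusted p = 0.164 in CON, 0.37 ± 0.25 (SE), adjusted p = 0.589 in PS and -0.54 ± 0.25 (SE), adjusted p = 0.238 in AS, and none passed.

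The 8 endothelial markers (Flt1 the most abundant, then Slco1a4, Cldn5, Ly6c1, Pecam1, Cdh5, Tek and Emcn) were read in the same libraries. In AS animals 5 of 8 fell with DEX (62.5%, where 4.95% of all rows fell; median log2 fold change -0.70), in PS animals 1 of 8 (Tek, 12.5%, against 2.62%; median -0.33) and in CON animals 0 of 8 (median 0.15). In PS the marker median was thus below 0 while the value of Robo4 was above it. Their sum was 5318, 6639, 7226 and 5333 in the saline-treated controls and 8699, 6853, 5672 and 7129 in the DEX-treated controls. In PS animals the sum was 4932, 5709.5, 6266 and 7072 with saline and 5167, 3107, 4905 and 6924 with DEX. In AS animals it was 6873, 4693, 7789 and 5682 with saline and 3504, 3461, 5358 and 3419 with DEX, the highest of the last 4 being mouse 60. The lowest of the 8, Emcn, had a mean of 133 over the 24 libraries, so none was near 0. Of 6 markers of mural cells (Rgs5 the most abundant), 3 fell in AS (50%, where 4.95% of all rows fell), with a median log2 fold change of -0.71. None of the 6 was called in CON (median 0.28) or in PS (median -0.31). The part of these markers in the falls of Sema3g, Ephb4, Unc5b and Plxnd1, and in the values of Robo4, was not tested.

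**Figure D5:**
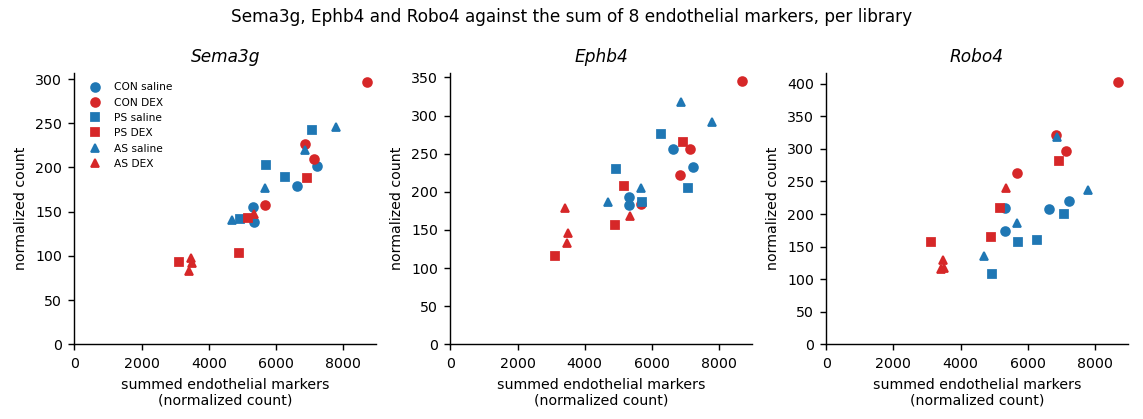
Normalized counts of Sema3g, Ephb4 and Robo4 against the summed normalized count of 8 endothelial markers in each of the 24 libraries (blue saline, red DEX; circles CON, squares PS, triangles AS). All axes start at 0; libraries with a low marker sum, such as 3 of the 4 AS DEX libraries (3419 to 3504), also have low counts of Sema3g.

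Markers of other cell types and of neighbouring tissue also changed with DEX. Of the striatal markers, Ppp1r1b and Rgs9 rose in the mean response and Drd1 rose in AS. Of the oligodendrocyte markers, Mag fell in CON and Mobp rose in AS. Of the microglial markers, P2ry12 fell in all 3 phenotypes and Cx3cr1 fell in PS and AS. Of the 6 astrocyte markers (Slc1a2 the most abundant), Aldh1l1 rose in CON and PS, Aqp4 fell in PS and AS, and Gfap fell in AS. Of the pyramidal neuron markers, Neurod6 fell in CON and Tbr1 rose in AS, and of the GABAergic neuron markers, Vip rose in CON and Pvalb and Lhx6 rose in AS. No olfactory bulb or blood marker was called for DEX in any phenotype. The part of these markers in the values of the guidance genes was not tested.

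In the ephrin family, ligands that are themselves bound to the membrane, 3 of 7 members fell in CON (42.9%, where 2.46% of all rows fell) and none was called in PS or AS. These were Efna2 (log2 fold change -0.44 ± 0.13 (SE), adjusted p = 0.0535), Efna5 (log2 fold change -0.38 ± 0.09 (SE), adjusted p = 0.0174) and Efna3 (log2 fold change -0.29 ± 0.08 (SE), adjusted p = 0.0351). All 7 ephrins had a mean DEX response below 0, as had 51.2% of all rows, and Efna3, Efna5 and Efnb2 were called there. Normalized counts of Efnb2 were 1932, 1892, 1956 and 1718 in the saline-treated controls and 1234, 1631, 1747 and 1683 in the DEX-treated controls. In PS animals, Efnb2 stood at 1790.1, 1710.1, 1806 and 1643 with saline and 1668, 1381, 1479 and 1575 with DEX. In AS animals, Efnb2 stood at 1715, 1814, 1600.4 and 1492 with saline and 1842, 1692, 1306 and 1408 with DEX. Efnb2, the ephrin with the highest normalized count, overlapped between saline and DEX in all 3 phenotypes, and its mean response was -0.18 ± 0.06 (SE), adjusted p = 0.046. The responses of Efna3 were -0.29 in CON, -0.18 in PS and -0.20 in AS, and those of Efna5 were -0.38, -0.26 and -0.24, so that both were below 0 in each phenotype with an adjusted p of at most 0.291. Efna2 stood at 183 ± 35.1 in the saline-treated controls and at 134 ± 15.3, 134 ± 5.72, 129.8 ± 11.2, 153 ± 16.9 and 167 ± 23.3 in the CON DEX, PS saline, PS DEX, AS saline and AS DEX groups (mean ± SD, n = 4 each). Without mice 117 and 34, Efna3 and Efna5 were still called in CON, and Efna2 and the semaphorin Sema6d were not, while Efna3 was called in PS and AS and Efna5 in AS as well. Without AS DEX mouse 60 Efna3 was also called in AS, and without AS saline mouse 44 Efna5 was.

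Among the Eph receptors, Epha10 (chr4:124880899-124917800, + strand), an Eph receptor without kinase activity, had the largest called rise of any member. Normalized counts of Epha10 were 1621, 1854, 1767 and 1586 in the saline-treated controls and 3028, 2493, 2727 and 2500.1 in the DEX-treated controls. In PS animals, Epha10 stood at 1605, 1768, 1541 and 1802 with saline and 2647, 2299, 2399 and 2843 with DEX. In AS animals, Epha10 stood at 1735, 1600.1, 1737 and 1613 with saline and 2250.0, 2366, 2339.8 and 2357 with DEX. Every DEX library (2250.0 to 3028) lay above every saline library (1541 to 1854), whatever the phenotype. The rise was 1.57-fold in CON (log2 fold change 0.65 ± 0.07 (SE), adjusted p = 2.63e-06), 1.51-fold in PS (log2 fold change 0.60 ± 0.07 (SE), adjusted p = 1.3e-05) and 1.39-fold in AS (log2 fold change 0.48 ± 0.07 (SE), adjusted p = 0.000204). The difference of the responses between AS and CON was -0.17 ± 0.10 (SE), adjusted p = 0.492 and that between PS and CON was -0.05 ± 0.10 (SE), adjusted p = 0.921, and neither passed the test. All 3 calls were kept in all 32 alternatives.

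Ephb2, a receptor of excitatory synapses, fell in CON animals. Normalized counts of Ephb2 were 655, 657, 668 and 572 in the saline-treated controls and 368, 448, 516 and 477 in the DEX-treated controls. In PS animals, Ephb2 stood at 477, 568, 605 and 522 with saline and 457, 448, 532 and 479 with DEX. In AS animals, Ephb2 stood at 619, 581, 566 and 509.9 with saline and 512, 476, 488 and 496 with DEX. In CON the DEX and saline libraries did not overlap (log2 fold change -0.50 ± 0.09 (SE), adjusted p = 0.0014), and the call was kept in all 32 alternatives. The values in PS (-0.18 ± 0.09 (SE), adjusted p = 0.426) and AS (-0.20 ± 0.09 (SE), adjusted p = 0.243) did not pass. Epha3, a receptor for ephrin-A ligands, fell in PS. Normalized counts of Epha3 were 292, 278, 268 and 288 in the saline-treated controls and 226, 194, 217 and 316 in the DEX-treated controls. In PS animals, Epha3 stood at 372, 306, 319.8 and 285 with saline and 209, 210.3, 217 and 248 with DEX. In AS animals, Epha3 stood at 268, 310.0, 299.5 and 239 with saline and 195, 249.8, 156 and 252 with DEX. The PS groups of Epha3 did not overlap (log2 fold change -0.53 ± 0.14 (SE), adjusted p = 0.0363), and the value in AS just missed the threshold (-0.41 ± 0.14 (SE), adjusted p = 0.102). The PS call was lost without PS saline mouse 2 or PS DEX mouse 6, with adjusted p from 0.0101 to 0.15. Epha8 fell in AS (log2 fold change -0.52 ± 0.15 (SE), adjusted p = 0.0382). Epha4, a receptor of both ephrin classes and the member with the highest normalized count of all, was not called. Normalized counts of Epha4 were 7967, 7997, 8685 and 6021 in the saline-treated controls and 6220.0, 8286, 8612 and 7893 in the DEX-treated controls. In PS animals, Epha4 stood at 7027, 7143, 7959.9 and 7527 with saline and 7728, 7231, 8546 and 7731 with DEX. In AS animals, Epha4 stood at 7614, 6568, 7320.1 and 6162 with saline and 7127, 9340.0, 5775 and 8500.2 with DEX. Its saline and DEX libraries overlapped in each phenotype, with responses of 0.02, 0.07 and 0.13 in CON, PS and AS and an adjusted p of 0.662 or more.

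Social defeat without DEX was compared in the saline groups. In PS against CON animals 1 member was called (1.54%, where 1.51% of all rows were called and 0.796% fell), Unc5a, with a log2 fold change of -0.27 ± 0.06 (SE), adjusted p = 0.0209. Every PS saline library (2584 to 2827) lay below every CON saline library (3108 to 3449), and all 4 AS saline libraries (2821 to 3028) lay below the controls as well (log2 fold change -0.17 ± 0.06 (SE), adjusted p = 0.275). The PS call was lost without PS saline mouse 2 (adjusted p = 0.109) and kept in the other 31 alternatives. At an unadjusted p under 0.05, 5 of 65 members stood out in PS (7.69%, where 13.1% of all rows did), all of them lower, among them Efna2 (-0.43 ± 0.13 (SE), unadjusted p = 0.00286, adjusted p = 0.131) and Ephb2 (-0.23 ± 0.09 (SE), unadjusted p = 0.0197, adjusted p = 0.273), both of which also fell with DEX in CON animals. Since the saline-treated controls enter both comparisons, the values are given side by side only.

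In AS against CON animals with saline, limma called 0 members, as did edgeR and DESeq2, where 0.156% of all rows were called by limma. At an unadjusted p under 0.05, 10 members stood out (15.4%, where 11.0% of all rows did), 9 of them lower. The log2 fold change was below 0 for 49 of 65 members in PS (75.4%, beside 49.4% of all rows) and for 46 in AS (70.8%, beside 49.1%). Their medians were -0.11 and -0.10, beside 0.0023 and 0.0031 for all rows, and stayed between -0.12 and -0.07 in PS and between -0.13 and -0.04 in AS over the alternatives, the last without AS saline mouse 44. The 2 comparisons share the saline-treated controls. Between AS and PS animals with saline, limma called 0 members, where 0.0% of all rows were called, and edgeR and DESeq2 called 0 members too. The 1 member at an unadjusted p under 0.05 (1.54%, where 4.77% of all rows were) was Sema4b, a transmembrane semaphorin (0.22 ± 0.09 (SE), unadjusted p = 0.0257, adjusted p = 0.934).

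Whether the DEX response differed between stressed and control animals was tested as an interaction. For PS against CON limma, edgeR and DESeq2 each called 0 members, where limma called 0.0% of all rows, and 7 members had an unadjusted p under 0.05 (10.8%, where 9.98% of all rows did). For AS against CON limma and edgeR called 0 members, where limma called 0.348% of all rows, and 16 members had an unadjusted p under 0.05 (24.6%, where 13.5% of all rows did), 8 in each direction. The smallest p-values were those of Sema3g (-1.27 ± 0.33 (SE), unadjusted p = 0.00072, adjusted p = 0.11), Robo4 (-1.19 ± 0.35 (SE), unadjusted p = 0.00228, adjusted p = 0.138) and Ntn1 (-0.64 ± 0.21 (SE), unadjusted p = 0.00506, adjusted p = 0.169), whose estimated response was lower in AS than in CON, and of Efna2 (0.55 ± 0.18 (SE), unadjusted p = 0.00555, adjusted p = 0.172), whose estimated response was higher. DESeq2 called these 4 (6.15%, where it called 3.12% of all rows). In limma, leaving out AS saline mouse 44 gave 7 calls (10.8%, where 4.87% of all rows were called), leaving out CON DEX mouse 112 gave 4 (6.15%, against 4.72%) and leaving out AS DEX mouse 60 gave 2 (3.08%, against 1.57%), so the count of 0 rested on single libraries. For Unc5a the difference was 0.23 ± 0.08 (SE), adjusted p = 0.367 in PS and 0.19 ± 0.08 (SE), adjusted p = 0.298 in AS.

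Partners of these families outside the symbol rule, a list of 68 co-receptors, adaptors, GTPase regulators and cytoskeletal effectors of which 64 were measured, were fitted in the same model. For DEX in CON 7 of 64 were called (10.9%, where 6.49% of all rows were; 1 up, 6 down), in PS 2 (3.12%, against 5.36%; 1 up, 1 down), in AS 7 (10.9%, against 8.77%; 3 up, 4 down) and for the mean response 16 (25.0%, against 15.5%; 7 up, 9 down). The median log2 fold change of the list lay at -0.036 in CON, -0.0019 in PS and -0.017 in AS. Farp2, a guanine nucleotide exchange factor that acts downstream of plexin and neuropilin, rose in all 3 phenotypes. Its mean normalized counts (± SD, n = 4 each) were 232 ± 39.2 with saline and 336 ± 24.9 with DEX in CON, 193 ± 10.5 and 316 ± 6.9 in PS, and 196 ± 19.5 and 322 ± 38.3 in AS. Its log2 fold changes were 0.55 ± 0.11 (SE, adjusted p = 0.00243), 0.71 ± 0.11 (adjusted p = 0.00018) and 0.72 ± 0.11 (adjusted p = 0.000155).

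The neuropilins, co-receptors for class 3 semaphorins, fell in part of the phenotypes. Nrp1 fell in CON (-0.50 ± 0.16, SE, adjusted p = 0.0707), and Nrp2 fell in PS (-0.47 ± 0.12, adjusted p = 0.0244) and AS (-0.52 ± 0.12, adjusted p = 0.00839). Rgma, a ligand of neogenin, fell in CON (-0.47 ± 0.10, adjusted p = 0.00737) and AS (-0.32 ± 0.10, adjusted p = 0.0682). Dcc and Neo1, the attractive netrin receptors, were not called in any DEX comparison. In AS animals Cxcl12, a chemokine, and Mical1, an oxidase of actin downstream of plexins, also fell, while the adhesion proteins Dscam and Flrt3 rose. In PS against CON animals with saline, 1 of 64 partners was called (1.56%, where 1.51% of all rows were), which is near the share of all rows. It was Limk1, a kinase that inactivates cofilin, which fell from 1687 ± 73.1 to 1259 ± 150 (-0.43 ± 0.09, SE, adjusted p = 0.019).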

How the data were processed

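RNA-seq libraries of the PFC were strand-specific, paired-end and poly(A)-selected, 1 per mouse. According to the submitters' processing notes and the study's methods, reads were trimmed with fastp 0.20.1, aligned to mm10 with HISAT2 2.2.1, counted on GENCODE vM22 genes with featureCounts (Subread 2.0) and normalized with DESeq2 1.36.0. The authors deposited signal values, in which each gene's count had been divided by the size factor of its library, and whole reads were recovered for 100% of the values within 0.01 read. The authors' own fold changes and p-values, which other deposited tables hold, were not used. Reads shared by a gene and a close copy could not be reassigned.

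All 14074 rows were tested with limma 3.58.1 in R 4.3.3 (1 mean per group, 24 libraries, moderated variance with a trend). The scale was log2(normalized count + 1), so fold changes of low genes are understated. P-values were adjusted by the Benjamini-Hochberg method over all rows, and an adjusted p under 0.1 was a call. The library was the replicate. Alternatives were a pseudocount of 8, rows with a mean of at least 100, quantile normalization, log2 depth as a covariate, the compared groups alone, edgeR 4.0.16 and DESeq2 1.42.0 on recovered reads, each library left out, and, chosen after seeing the data, mice 117 and 34 left out together. Coordinates and exon lengths came from GENCODE vM21 (GRCm38), which held the IDs of all 65 members.

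Named members were up to 3 rises and 3 falls by size per comparison, the 5 smallest p of the F test, the highest mean of each family and Slit2. Other called members are named after their values were seen. The members, marker lists and partner list were chosen with earlier results of these data known. Some marker genes are not reported here.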

Additional observations from a re-analysis of the deposited data

Results flagged for a closer look

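In groups of 4 mice, the library farthest from the others was set against Dixon's 95% critical value for each of the 17 named members, which made 102 groups. Chance alone flags about 1 group in 20, and 3 were found. Ephb2 was low in CON saline mouse 117 (572 normalized counts, against 655 to 668 in the other 3), which is the library with the highest olfactory bulb marker sum. Unc5a was low in PS DEX mouse 52 (3358, against 3439 to 3454). Unc5b was high in AS DEX mouse 38 (322, against 237 to 251), which is the mouse that overlaps with the saline group. The part of single mice in these values was not tested.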

How the results depend on the processing

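Over the 10 comparisons, 318 counts of called members were recomputed, of which 300 stayed within 1.5 times the reported count and 18 did not. DESeq2 called 16 members for DEX in AS against 10 in limma (11.5% against 8.77% of all rows), 2 for PS against CON with saline against 1 (Efna2 and Unc5a; 3.07% against 1.51% of all rows), and 4 for the AS interaction against 0 (3.12% against 0.348% of all rows), for which a fit of only the compared groups called 1 (Sema3g). Leaving out 1 library gave 6 to 9 members for DEX in CON, 4 to 9 for DEX in PS, 6 to 18 for DEX in AS, 17 to 25 for the mean response, 16 to 21 for the F test, 0 to 1 for PS against CON and 0 to 7 for the AS interaction. The other comparisons stayed at 0. Without mice 117 and 34 the counts were 17 for the F test, 6 for DEX in CON, 6 for DEX in PS, 14 for DEX in AS, 20 for the mean response, 1 for PS against CON and 0 for the other comparisons. In this setting DEX in PS lost Slit2, Ntn1 and Sema4a and gained Efna3.

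Of 34 called log2 fold changes of named members, 24 were called in every alternative run. Of their 1075 values under the alternatives, 1004 stayed called, 71 did not pass the threshold and 0 changed sign. The cause of the lost calls was not tested. Depth limits the lowest members most: Efna1, named here for its low count, had as few as 33 reads in a library.

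No paired analysis was possible because mouse numbers do not recur between groups.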

Other observations

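The netrin-G gene Ntng1 was highest in the pair of libraries with the most olfactory bulb marker counts. It was at 923 normalized counts in CON saline mouse 117, against 375 to 430.0 in the other 3 mice of that group, and at 772 in PS DEX mouse 34, against 308 to 371 in the other 3. The secreted netrin Ntn4 was at 423 in mouse 117, against 205 to 229 in its group, and at 239.6 in mouse 34, against 168 to 202. Both genes were chosen after their values were seen, and neither was called in any comparison.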
